A study of Mus musculus with 4 samples.

Results

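The Notch genes described here are 10 named members of the pathway, namely the receptors Notch1, Notch2 and Notch3, the ligands Dll1, Dll3 and Jag1, and the target genes Hes1, Hes5, Hey1 and Hey2. They were found by gene symbol among the 55421 genes listed for each library, and all 10 were present once and passed the expression filter. The libraries came from prefrontal cortex of wild-type C57BL/6 mice taken at postnatal day 0, dissociated and kept in neurobasal medium with B27 and GlutaMAX for 10 days. FGF2 at 5 ng/mL was added to the cultures of 2 libraries, named FGF2 here, and the other 2 libraries, named no FGF2, came from the same medium without it. The cultures were not sorted, so each library holds the RNA of neurons and glia together, and the labels do not say whether the 2 libraries of a group came from separate cultures. The study's methods describe the replicates of some human samples as biological and those of the other samples as technical, without naming the mouse libraries. The replicates here may thus be technical. In that case the p-values measure technical spread and not the spread between cultures or animals.

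In Notch signalling, a ligand on one cell binds a receptor on its neighbour, and proteases then release the intracellular part of the receptor. This part enters the nucleus, joins the DNA-binding protein RBPJ and turns on genes of the Hes and Hey families, which encode transcriptional repressors. In the developing cortex the pathway is known for keeping radial glia undifferentiated and for its role in the formation of astrocytes, while the ligand Dll1 is typical of cells that become neurons.

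Because RBPJ is the step that links receptor to target, the promoters of the members were searched for GTGGGAA, the core letters bound by RBPJ, on both strands from 250 bases before to 50 bases after the gene start. RefSeq promoters (GRCm38.p6) were at hand for 8 of the 10 members, and Hes1 and Hey1 were not among them. The letters occurred in 2 of the 9 promoters of these 8 genes, those of Hes5 and Hey2, and in 6.38% of all 32851 promoters of this length. Each of these promoters held the letters once on each strand, and the stretches below are shown for the position of the matches, which are in capitals, with TTCCCAC as the form on the opposite strand.
Hes5, chr4:154960683-154960922, plus strand: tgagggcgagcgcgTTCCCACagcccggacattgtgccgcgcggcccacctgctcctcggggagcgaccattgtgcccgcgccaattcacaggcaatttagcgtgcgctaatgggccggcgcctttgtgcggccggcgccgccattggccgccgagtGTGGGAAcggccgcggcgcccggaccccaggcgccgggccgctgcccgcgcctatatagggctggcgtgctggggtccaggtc
Hey2, chr10:30842802-30843023, minus strand: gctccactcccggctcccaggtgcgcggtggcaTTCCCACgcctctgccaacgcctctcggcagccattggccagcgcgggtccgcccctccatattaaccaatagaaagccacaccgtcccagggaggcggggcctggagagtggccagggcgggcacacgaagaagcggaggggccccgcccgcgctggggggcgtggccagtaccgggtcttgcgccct
In Hes5 the matches began 226 and 83 bases before the start. In Hey2 they began 207 and 4 bases before the RefSeq start. The latter match lies inside the gene by the mm10 coordinates given below, which end at 30842801, and is not shown. A match of letters is a description of the sequence and does not show binding.

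With FGF2 the transcription levels of Notch2 and Notch1 rose, that of the ligand Jag1 fell, and that of Dll3 passed the threshold upwards on few counts. The remaining 6 members, including all 4 Hes and Hey genes, did not pass it. A gene was called where the Benjamini-Hochberg adjusted p over 17144 genes, from the quasi-likelihood test of edgeR, was under 0.05. By this rule 3 of the 10 members were higher and 1 was lower with FGF2, whereas 20.7% of all tested genes were higher and 19.9% were lower. The share of members called was thus close to the 40.5% called among all tested genes. The median log2 fold change of the members was -0.13, beside -0.001 over all tested genes. Both FGF2 libraries lay above both no FGF2 libraries for 3 members (33.6% of all tested genes) and below them for 2 members (33.4% of all tested genes). Levels are given as CPM, in which each count is scaled by the TMM-adjusted total of its library, and fold changes as FGF2 over no FGF2.

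**Figure D1:**
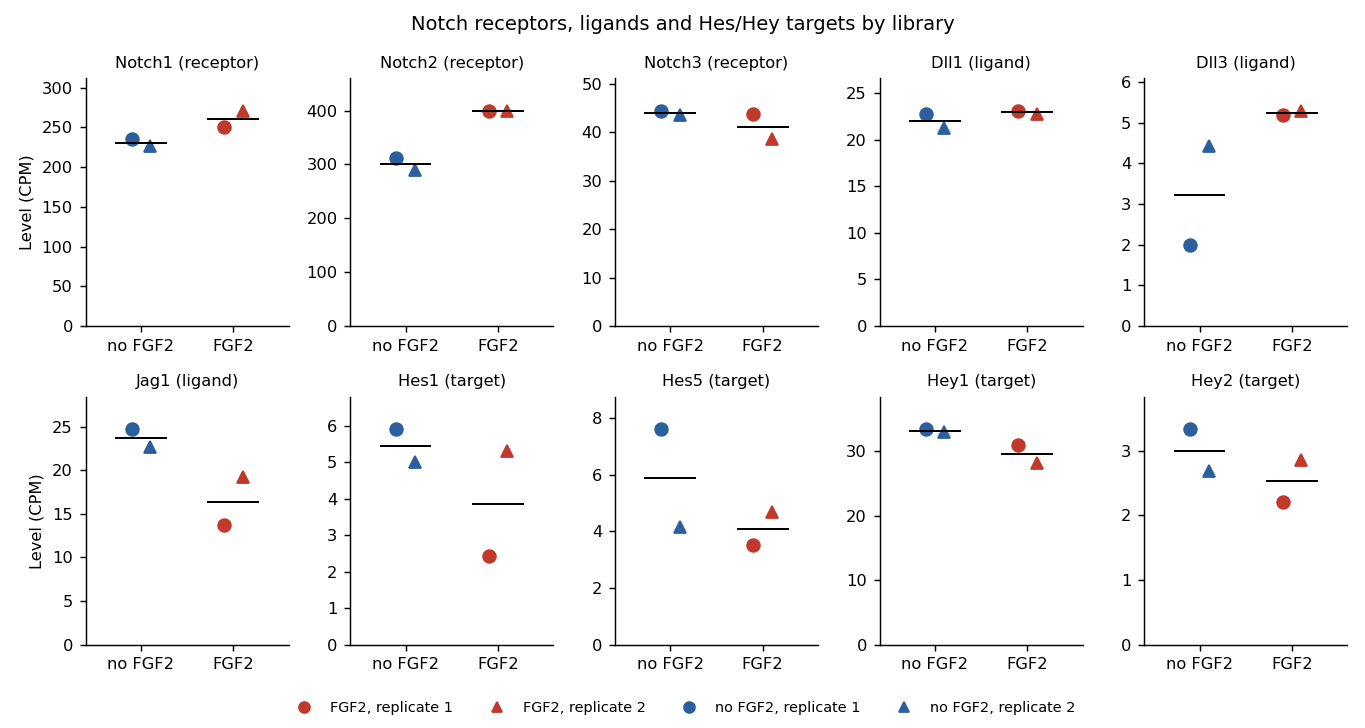
Level in CPM (y axis, from 0) of each Notch gene in the 4 libraries, with circles for replicate 1, triangles for replicate 2 and a line at the mean of each group (n = 2). Notch2 is separated most clearly, at 399 and 399.7 CPM with FGF2 and 289 and 312 without, while the libraries of a group lie far apart for Hes1 with FGF2 and for Hes5 and Dll3 without.

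The receptors are described first. Notch2, the gene of a receptor found in glia and their precursors, lies on chromosome 3 of mm10 from 98013527 to 98150361. It had 399.7 and 399 CPM in replicates 1 and 2 with FGF2 and 312 and 289 CPM without FGF2. The groups did not overlap, and its log2 fold change was 0.41 ± 0.04 (SE, edgeR adjusted p = 5.7e-22), which is 1.33-fold. The log2 fold change stayed between 0.35 and 0.46 when each library was left out in turn. The transcript Gm42820 on the same strand covers 5.02% of the exonic length of Notch2. This transcript had 74 and 77 counts in the FGF2 libraries and 38 and 26 in the others, against 3131 to 3921 for Notch2.

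Notch1, the receptor best known for maintaining neural progenitors, lies on chromosome 2 from 26457903 to 26516663. Its level was 251 and 271 CPM with FGF2 and 235 and 226 CPM without FGF2. The groups did not overlap, but the gap between them was of the size of the gap between replicates, and the log2 fold change was 0.18 ± 0.05 (SE, edgeR adjusted p = 3.7e-04). Without FGF2 replicate 2 it was 0.12 (adjusted p = 0.059 from edgeR) and without no FGF2 replicate 2 it was 0.15 (adjusted p = 0.07 from edgeR), so each of these libraries was needed for the call.

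Notch3, a receptor typical of the mural cells of vessels, lies on chromosome 17 from 32120820 to 32166852. It had 43.8 and 38.7 CPM with FGF2 and 44.5 and 43.7 CPM without FGF2. The groups overlapped, and the log2 fold change was -0.10 with a 95% interval from -0.29 to 0.09 (adjusted p = 0.44 from edgeR). Per exonic length, the ratio of Notch2 to Notch3 in a library was 6.85 and 7.72 with FGF2 and 5.25 and 4.97 without, and that of Notch2 to Notch1 was 2.10 and 1.94 with FGF2 and 1.75 and 1.69 without. For both ratios the groups did not overlap, and the exact permutation test (two-sided) gave p = 0.333, the smallest that 2 libraries against 2 allow. These ratios, and that of Jag1 to Dll1 below, were chosen after the values were seen. Notch2 made up 60.8% to 61.6% of the summed level of the 3 receptors per exonic length with FGF2 and 55.8% to 56.7% without.

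Markers of other cell types moved in the same libraries, and in bulk RNA a change in the number of cells of a type and a change in RNA per cell cannot be told apart. The counts of called markers are to be read beside the 20.7% of all tested genes that were higher and the 19.9% that were lower. All 6 pan-neuronal markers fell, and their summed level was 2669 and 2706 CPM with FGF2 and 3712 and 3688 without. Of 7 astrocyte markers 6 rose, with a summed level of 11155 and 11069.7 CPM with FGF2 and 6462 and 6422 without. Of 7 radial glia and progenitor markers 4 rose and 3 fell, and all 7 oligodendrocyte lineage markers rose, with a summed level of 1512 and 1534 CPM with FGF2 and 478 and 494 without. Of 5 proliferation genes 4 fell. The part of these shifts in the levels of Notch1 and Notch2 was not tested. Of 7 mural markers 4 were tested, of which 2 rose and 1 fell. The summed level of all 7 was 61.5 to 64.5 CPM with FGF2 and 40.5 to 42.2 without. Most of this sum was Pdgfrb, with a mean of 47.9 CPM with FGF2 and 28.8 without. Tagln, the mural marker that fell, had a mean of 2.87 CPM with FGF2 and 5.68 without. The mural genes Kcnj8 and Abcc9 had at most 3 counts in any library. Of 7 endothelial markers 3 were tested, of which Flt1 rose by 2.71 on the log2 scale (edgeR adjusted p = 1.1e-08), Kdr fell by 0.95 (edgeR adjusted p = 0.048) and Pecam1 was not called, while Cldn5 and Tie1 had 0 counts in all 4 libraries, which allows up to 3 counts in each. The summed level of the endothelial list was 9.92 and 7.73 CPM with FGF2 and 4.95 and 8.50 without. Of 6 meningeal fibroblast markers 5 were tested and 2, Col1a1 and Col1a2, fell, and the list summed to 9.92 and 8.13 CPM with FGF2 and 21.2 and 19.7 without. Of 6 microglia markers 3 were tested and 2, Csf1r and Cx3cr1, rose, and the list summed to 11.7 and 13.9 CPM with FGF2 and 5.52 and 5.91 without.

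Among the ligands, Jag1, the Jagged ligand made by progenitors and astrocytes among other cells, lies on chromosome 2 from 137081456 to 137116644. It had 13.7 and 19.2 CPM with FGF2 and 24.7 and 22.7 CPM without FGF2. Both FGF2 libraries were lower, replicate 1 more so, and the log2 fold change was -0.52 ± 0.14 (SE, edgeR adjusted p = 5.6e-04), which is 1.43-fold lower. The size and the call rested on FGF2 replicate 1. Without it the log2 fold change was -0.30 (adjusted p = 0.11 from edgeR), without FGF2 replicate 2 it was -0.80, and with DESeq2 the adjusted p was 0.075 at a log2 fold change of -0.53.

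Dll1, a Delta ligand that activates Notch on the neighbouring cell, lies on chromosome 17 from 15367354 to 15376872. It had 23.1 and 22.8 CPM with FGF2 and 22.8 and 21.2 CPM without FGF2, and the groups overlapped. The antisense transcript A930024N18Rik covers 20.5% of its exonic length and was not analysed here. The log2 fold change was 0.06 with a 95% interval from -0.19 to 0.31 (adjusted p = 0.75 from edgeR). The ratio of Jag1 to Dll1 per exonic length was 0.428 and 0.611 with FGF2 and 0.781 and 0.778 without, which is a log2 difference of -0.61 between the groups (two-sided exact permutation p = 0.333).

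Dll3, a divergent Delta protein that stays largely inside the cell and is regarded as an inhibitor of the pathway, lies on chromosome 7 from 28293553 to 28302238. It had 47 and 52 counts with FGF2 and 21 and 48 counts without FGF2, or 5.18, 5.29, 2.00 and 4.43 CPM. One library, no FGF2 replicate 1, was lower than the other 3, which lay close together. The log2 fold change was 0.70 ± 0.30 (SE, edgeR adjusted p = 0.049). It was 0.23 without no FGF2 replicate 1 (adjusted p = 0.68 from edgeR) and 1.38 without no FGF2 replicate 2. Without FGF2 replicate 1 or 2 it was 0.71 or 0.68 (adjusted p = 0.1 and 0.13 from edgeR), and with DESeq2 the adjusted p was 0.36. The edgeR adjusted p was 0.056 with library totals in place of TMM and 0.073 without the expression filter.

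**Figure D2:**
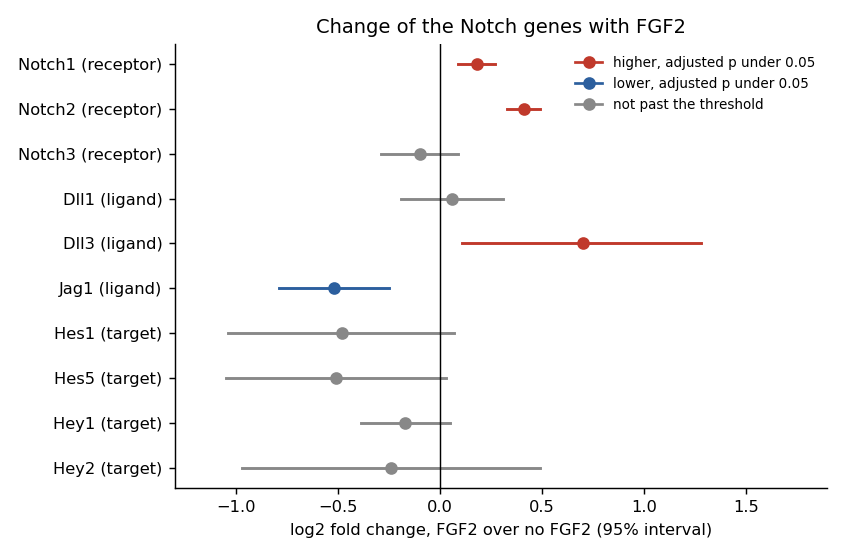
Log2 fold change (x axis, FGF2 over no FGF2) of the 10 Notch genes with the 95% interval from the edgeR fit, coloured by whether the adjusted p-value was under 0.05. The interval of Notch2 is the farthest from 0, at 0.33 to 0.49, and the intervals of the 4 Hes and Hey genes all include 0.

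None of the 4 target genes passed the threshold. Hes1, a repressor of proneural genes whose RNA is short-lived, lies on chromosome 16 from 30064384 to 30067796. It had 22 and 52 counts with FGF2 and 62 and 54 counts without FGF2, or 2.42, 5.29, 5.90 and 4.99 CPM. The low value of FGF2 replicate 1 stood apart from the other 3 libraries, so that the replicates with FGF2 differed 2.18-fold. The log2 fold change was -0.48 with a 95% interval from -1.04 to 0.07 (adjusted p = 0.17 from edgeR). It was -0.04 without FGF2 replicate 1 and -1.16 without FGF2 replicate 2 (adjusted p = 0.93 and 0.0088 from edgeR).

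Hes5, the Hes gene most closely tied to Notch activity in the cortex, lies on chromosome 4 from 154960923 to 154962371. It had 32 and 46 counts with FGF2 and 80 and 45 counts without FGF2, or 3.53, 4.68, 7.61 and 4.16 CPM. Here no FGF2 replicate 1 was the high library, and the other 3 lay together. The log2 fold change was -0.51 with a 95% interval from -1.05 to 0.03 (adjusted p = 0.13 from edgeR). It was -0.02 without no FGF2 replicate 1 and -0.89 without no FGF2 replicate 2 (adjusted p = 0.98 and 0.024 from edgeR). The transcript Gm20421 on the opposite strand covers 31.8% of the exonic length of Hes5 and had at most 2 counts in a library.

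Hey1, a related repressor, lies on chromosome 3 from 8663359 to 8667256 and was the most abundant of the 4 target genes. It had 31.0 and 28.2 CPM with FGF2 and 33.4 and 33.0 CPM without FGF2. Both FGF2 libraries were the lower ones, but the log2 fold change of -0.17 had a 95% interval from -0.39 to 0.05 (adjusted p = 0.23 from edgeR). Hey2, best known for its role in the heart and in vessels, lies on chromosome 10 from 30832359 to 30842801 and had 20 and 28 counts with FGF2 and 35 and 29 counts without FGF2. Its groups overlapped, and the interval of its log2 fold change was wide, from -0.97 to 0.49 (adjusted p = 0.65 from edgeR). The fitted value was below 0 for each of the 4 target genes, with a range from -0.51 to -0.17, but each interval includes 0, and those of Hes1, Hes5 and Hey2 are wide at this depth.

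**Figure D3:**
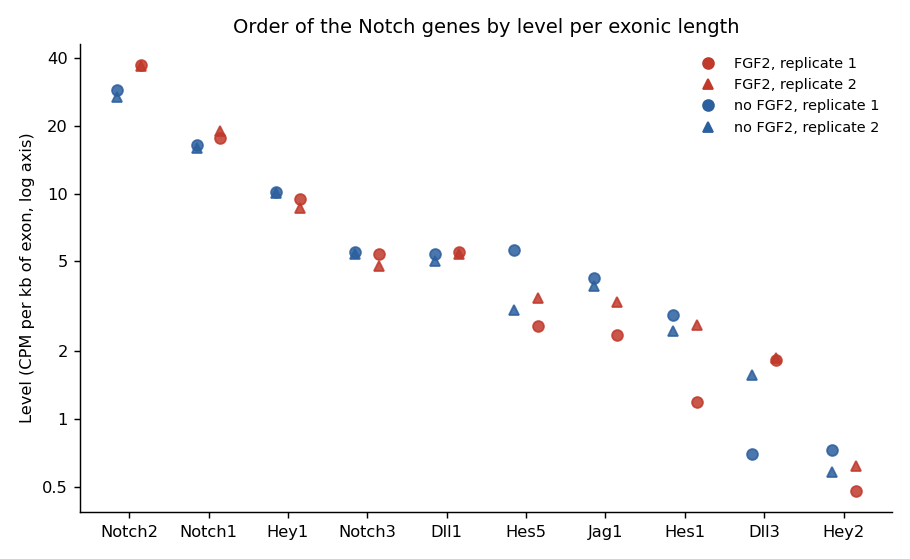
Level per exonic length (y axis, CPM per kb of exon, log scale) of the 10 Notch genes in each library, in order of the mean without FGF2. Notch2, Notch1 and Hey1 are separated from each other in all 4 libraries, while Notch3 and Dll1 share the range around 5 CPM per kb and Hey2 is at the bottom.

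Ordered by level per exonic length, Notch2 came first with 37.0 ± 0.0690 CPM per kb with FGF2 and 27.9 ± 1.48 without (SD, n = 2), which is above the level of 93.7% of the tested genes. Notch1 followed with 18.4 ± 0.983 and 16.2 ± 0.474 CPM per kb, and Hey1 with 9.06 ± 0.607 and 10.2 ± 0.0936 CPM per kb (SD, n = 2). The ranges of these 3 genes over the 4 libraries did not overlap. Notch3 and Dll1 were not separated, with 4.79 to 5.51 and 5.01 to 5.49 CPM per kb over all libraries. Opposite-strand transcripts share 20.5% of the exonic length of Dll1 and 31.8% of that of Hes5, and the effect on these levels was not tested. Hes5 ranged from 2.59 to 5.59, Jag1 from 2.35 to 4.23 and Hes1 from 1.19 to 2.90 CPM per kb, and each of them overlapped the next. Dll3 (0.701 to 1.86 CPM per kb) and Hey2 (0.480 to 0.725 CPM per kb) were the least abundant and overlapped as well. Hey1 alone made up between 52.6% and 69.0% of the summed level of the 4 target genes per exonic length.

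The other genes of the pathway were taken from lists of 46 genes, of which 40 were tested. With FGF2, 16 of them rose, 9 fell and 15 did not pass the threshold, with a median log2 fold change of 0.13. Among all tested genes 20.7% were higher and 19.9% lower, and the counts of each list that follows are to be read against these shares. Of the 9 that fell, 5 were other ligands (3 of 5) or ubiquitin ligases that act on ligands (2 of 4). These lists were put together after the values were seen. Of the 3 member ligands, 1 was higher and 1 lower. With DESeq2 10 rose and 7 fell. The genes named below beyond the first of each list were chosen after their values were seen.

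Of the 6 nuclear factors, 4 rose and 1 fell. Rbpj, the DNA-binding partner of the receptor fragment, had 127 and 128 CPM with FGF2 and 73.8 and 72.9 CPM without FGF2. The replicates were almost identical and the groups far apart, with a log2 fold change of 0.80 ± 0.07 (SE, edgeR adjusted p = 2.1e-31) that stayed between 0.79 and 0.80 with any library left out. The coactivators Maml2 and Maml1 rose by 0.67 and 0.42 on the log2 scale (adjusted p = 4.9e-24 and 1.5e-04 from edgeR), and Snw1, a splicing and transcription cofactor that binds the complex, by 0.52 (adjusted p = 1.2e-10 from edgeR). Slirp covers 44.2% of the exonic length of Snw1 on the opposite strand and had 99 to 131 counts against 613 to 831 for Snw1. Spen, a corepressor of RBPJ, fell by 0.22 on the log2 scale (adjusted p = 4.6e-06 from edgeR). The astrocyte and oligodendrocyte lineage markers had median log2 fold changes of 0.48 and 1.04 in the same libraries. Their part in the rise of these nuclear factors, and of the proteases below, was not tested.

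Of 8 receptor proteases and their subunits, 6 rose and 0 fell, and 2 did not pass the threshold. Adam17, a sheddase that can cut Notch outside the cell, had 79.3 and 85.1 CPM with FGF2 and 54.4 and 55.8 CPM without (log2 fold change 0.58, adjusted p = 1.9e-12 from edgeR). Psenen, a subunit of the gamma-secretase complex that releases the receptor fragment, rose by 0.48 on the log2 scale (adjusted p = 5.9e-07 from edgeR). The other 4 were Adam10, Psen2, Ncstn and Aph1a, with log2 fold changes between 0.17 and 0.36. Each of these 4 missed the threshold with DESeq2, with adjusted p-values from 0.053 for Adam10 to 0.29 for Psen2. Psen2 (0.34 to 0.37) missed it whichever library was left out. Adam10 missed it without FGF2 replicate 2 (0.14), Ncstn without FGF2 replicate 1 (0.12) or no FGF2 replicate 1 (0.08), and Aph1a without FGF2 replicate 2 (0.18) or no FGF2 replicate 1 (0.19).

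Of 5 other ligands, 3 fell and 0 rose. Dner, a Notch-binding transmembrane protein of neurons, had 174 and 162 CPM with FGF2 and 286 and 273 CPM without (log2 fold change -0.74, adjusted p = 1.4e-51 from edgeR). Jag2, the second Jagged ligand, had 13.6 and 16.2 CPM with FGF2 and 22.7 and 26.7 CPM without, so it fell like Jag1, by 0.73 on the log2 scale (adjusted p = 7.3e-07 from edgeR), between 0.61 and 0.87 with any library left out. Dlk2, a non-canonical ligand, fell by 0.97 on the log2 scale (adjusted p = 0.0029 from edgeR), and missed the threshold without no FGF2 replicate 1 (-0.85) and with DESeq2 (adjusted p = 0.099). Dll4, a Delta ligand known from vessels, had 16 and 4 counts in the FGF2 libraries and 24 and 23 in the others. It was not called at a log2 fold change of -1.04 (adjusted p = 0.079 from edgeR, 0.42 from DESeq2 and 0.03 from limma-voom). Its log2 fold change was -2.41 without FGF2 replicate 1 and -0.32 without FGF2 replicate 2. Of the 4 ubiquitin ligases that trigger the uptake of bound ligand, Neurl1b fell by 1.20 and Neurl1a by 0.85 on the log2 scale (adjusted p = 1.5e-52 and 2.3e-12 from edgeR). Mib1 and Mib2 did not pass the threshold, with log2 fold changes of 0.05 and 0.12. AC132288.2 shares 9.47% of the exonic length of Neurl1a on the same strand and had 7 to 21 counts against 171 to 424. The pan-neuronal markers fell in the same libraries (median log2 fold change -0.48), and their part in the fall of these genes was not tested.

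**Figure D4:**
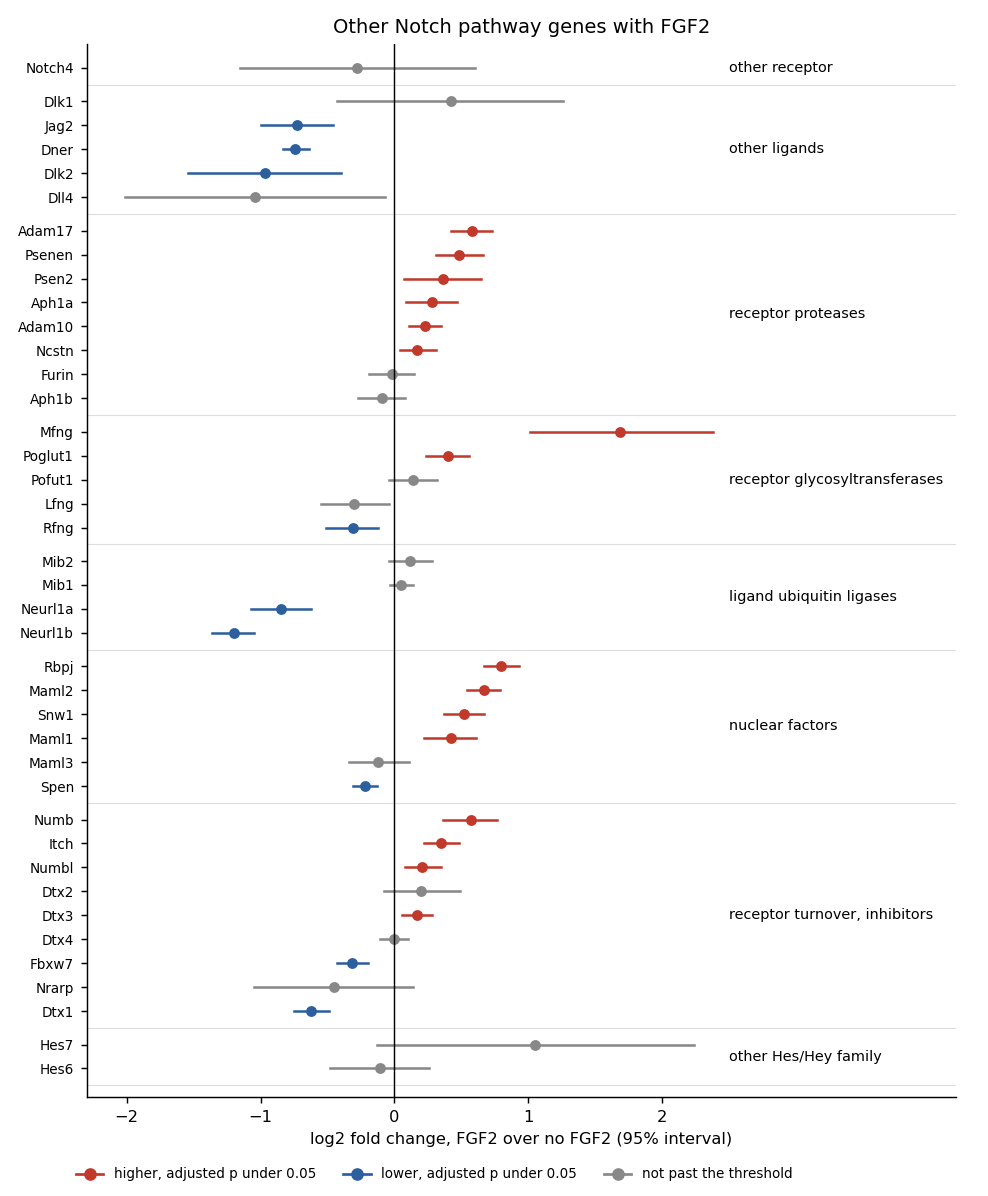
Log2 fold change (x axis, FGF2 over no FGF2) with the 95% interval from the edgeR fit for the 40 tested genes of the other Notch pathway lists, grouped by list and coloured by whether the adjusted p-value was under 0.05. Rbpj, Maml2, Snw1 and Maml1 lie to the right of 0, Neurl1b, Neurl1a, Dner and Jag2 lie to the left, and Mfng at 1.69 is the farthest to the right.

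Among the 5 enzymes that add sugars to the receptors, Mfng, the Manic Fringe glycosyltransferase, rose most. It had 45 and 56 counts with FGF2 and 16 and 19 counts without FGF2, a log2 fold change of 1.69 ± 0.35 (SE, edgeR adjusted p = 7.1e-06). In the same libraries the microglia markers summed to 11.7 and 13.9 CPM with FGF2 and 5.52 and 5.91 without. The oligodendrocyte lineage markers summed to 1512 and 1534 CPM with FGF2 and 478 and 494 without, and 6 of 7 astrocyte markers rose. The part of these cell types in the level of Mfng was not tested. Poglut1 rose by 0.40 on the log2 scale (adjusted p = 4.5e-06 from edgeR). Rfng, the Radical Fringe, fell by 0.31 on the log2 scale (adjusted p = 0.0049 from edgeR), and missed the threshold without FGF2 replicate 1 (-0.26), without no FGF2 replicate 2 (-0.28) and with DESeq2 (adjusted p = 0.11). Of the 9 inhibitors and regulators of receptor turnover, Numb, Itch, Numbl and Dtx3 rose, by 0.57, 0.35, 0.21 and 0.17 on the log2 scale (adjusted p = 4.5e-07, 4.3e-07, 0.0076 and 0.011 from edgeR). Numbl missed the threshold without no FGF2 replicate 2 (0.19), Dtx3 without no FGF2 replicate 1 (0.19) or 2 (0.14), and both with DESeq2. The Deltex gene Dtx1 and Fbxw7, a ubiquitin ligase for the nuclear receptor fragment, fell by 0.62 and 0.32 on the log2 scale (adjusted p = 4.3e-19 and 2.6e-07 from edgeR).

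The proneural genes Neurog1 and Atoh1, of the kind that Hes proteins repress, had 0 counts in every library and Neurog2 had at most 7, so they were not tested. Among the other Hes and Hey genes, Hes6 and Hes7 were tested and neither passed the threshold, and Hes6, with 93 to 124 counts, was the more abundant (log2 fold change -0.11, adjusted p = 0.7 from edgeR). Heyl had at most 6 counts, Hes3 at most 3 and Hes2 at most 1. Notch4, a receptor of endothelial cells, had 12 to 26 counts (log2 fold change -0.28, adjusted p = 0.67 from edgeR).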

How the data were processed

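Total RNA of cultured prefrontal cortex cells was sequenced (150 bp paired-end) in 4 libraries, 2 with and 2 without FGF2. Per the labels and the paper's methods, the authors mapped the reads to mm10 with HISAT2 2.1.0, kept those with a mapping quality of at least 20 and counted them per gene with HTSeq 0.11.2, and they deposited raw counts without normalization. The annotation release and strand setting are not given in the sources used here. Names, mm10 coordinates and merged exonic lengths came from GENCODE M21, which matched 55240 of the 55421 identifiers. Counts on genes totalled 9166432 to 10799886 per library, where 3 counts, the limit that a count of 0 allows, are 0.277 to 0.331 CPM (counting error only). The 5 tallies that name no gene were left out, of which reads in no feature made up 43.2% to 45.9%.

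Differences were tested on these counts in edgeR 4.0.16 (R 4.3.3) by its quasi-likelihood method (TMM, expression filter by group, robust estimation, no covariate) and adjusted by Benjamini-Hochberg over 17144 genes. Standard errors and 95% intervals follow from the test statistic. The code was tested on simulated data. Alternatives were RLE size factors, library totals, no filter, at least 10 counts in every library, DESeq2 1.42.0, limma-voom (limma 3.58.1), a replicate block, each library left out and an adjusted threshold of 0.01. The replicates differed by more than sampling noise (chi-square per degree of freedom 2.28 and 1.76). The text names every member, the first gene of each pathway list by adjusted p (by level where none passed) and called genes past a log2 fold change of 1 in size. Some genes of the pathway lists are not reported here. The members, lists and tests were chosen with earlier results of these data known.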

Additional observations from a re-analysis of the deposited data

How the results depend on the processing

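Notch2 kept its direction and its call under every alternative run, with log2 fold changes from 0.35 to 0.46. No member reversed its direction under any alternative run. With DESeq2, 2 members were higher and 0 lower, against 3 and 1 with edgeR. Of all genes 2068 were higher and 1939 lower with DESeq2, against 3541 and 3408 of 17144 with edgeR. DESeq2 was run without the expression filter, so its counts are not out of the same 17144 genes. With DESeq2 10 of the other pathway genes were higher in place of 16. With each library left out in turn, 1 to 2 members were higher and 0 to 2 lower. The 8 other pathway genes that lost their call with DESeq2 also lost it with at least 1 library left out. The log2 fold change of Hes6 went from -0.27 to 0.06 and that of Notch4 from -0.67 to 0.01 with a library left out, and the cause was not tested. The fits without a library leave 1 library in a group, which is then assumed to vary like the other group.

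The replicate numbers were not found to pair the libraries, since the correlation over genes between the replicate differences of the groups was 0.00. With the replicate number as a block, 3 members were higher and 1 lower, 3476 and 3338 of all genes were higher and lower, and no call of a member or named pathway gene changed. Dll3, Hes1, Hes5 and Hey2 had 20 to 80 counts per library, which limits the precision of their fold changes.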
